A study of Mus musculus with 41 samples.

Results

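The data set described here is a direct comparison of RNA from 2 kinds of mutant mouse embryonic fibroblasts (MEFs, primary cells grown from embryos), one labelled as lacking *Upf2* and the other as lacking *Hbs1l*. Its libraries were selected by genotype and assay, as every RNA library of the *Upf2* mutant against every RNA library of the *Hbs1l* mutant, and make up 6 of the 41 samples of the series, 3 per genotype. All 6 libraries carry the same batch label, as do the 3 control RNA libraries whose values are given beside them. The cells were C57BL/6. They carried a CAG-Cre ER transgene, a tamoxifen-activated recombinase driven by the broadly active CAG promoter, alone (control) or together with *Upf2* cKO or *Hbs1l* cKO alleles, and mutants and controls alike had been treated with tamoxifen. The *Upf2* mutant was *Upf2* fl/fl and the *Hbs1l* mutant carried a floxed and a null allele (*Hbs1l* fl/-). The *Hbs1l* alleles came from a C57BL/6N line, whereas the floxed *Upf2* line was provided by other investigators and its substrain is not stated. Line background may therefore differ along with genotype, and its part in the differences was not tested. All genotypes, controls included, were homozygous for the B6J allele of the tRNA gene *n-Tr20*, and each replicate was a dish of cells from a separate embryo.

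UPF2 is a core factor of nonsense-mediated decay (NMD), the pathway that degrades mRNAs on which translation ends well before the last exon-exon junction or before a long 3' untranslated region. HBS1L acts with PELO in another translation-dependent pathway, in which ribosomes that have stalled within a message or at its end are split and released. Both pathways read the mRNA through the ribosome, and the comparison asks how RNA levels differ between cells in which one or the other has been impaired.

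The measurement was poly-A selected, strand-specific RNA sequencing, quantified by the authors as estimated counts per transcript. The 6 mutant libraries held between 26576733 and 86425762 estimated counts, of which the 10 most abundant genes took between 15.8% and 19.1%, and the 3 control libraries between 22713643 and 77329534. Levels are given as CPM, counts relative to the size of the library after TMM scaling, and differences as log2 fold changes of the *Upf2*-labelled over the *Hbs1l*-/- libraries with their standard error (SE), tested with edgeR (quasi-likelihood) at a Benjamini-Hochberg adjusted p of 0.05. The libraries also differed in sex. Y-linked genes summed to 64.3 and 58.7 CPM in *Upf2*-labelled replicates 1 and 2 but to 0.517 CPM in replicate 3 and 0.353 to 0.464 CPM in the *Hbs1l*-/- libraries, so that sex and genotype overlap in part. Fibroblast markers had a high summed level in every library, 11200 to 12317 CPM in the *Upf2*-labelled and 13757 to 18583 CPM in the *Hbs1l*-/- libraries. Such a sum rests mainly on its most abundant members and does not show the level of each marker. Of the fibroblast markers 12 of 12 passed the filter on low counts, while 0 of 11 erythroid markers did.

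The targeted genes were examined first. *Hbs1l* (chr10:21295979-21368898, GRCm38) stood at 9.55, 11.7 and 12.3 CPM in the *Hbs1l*-/- libraries, at 85.9, 69.1 and 61.2 CPM in the *Upf2*-labelled libraries and at 72.5 to 80.6 CPM in controls. The groups were well apart, with a log2 fold change of 2.68 (SE 0.16, adjusted p = 8.47e-06, edgeR). Among its isoforms, the main coding one, Hbs1l-209, was at 0, 0.624 and 3.23 CPM in *Hbs1l*-/- cells against 59.9, 52.3 and 41.9 CPM. The coding isoform Hbs1l-201 was also lower but kept more of its level, at 5.76, 6.1 and 3.43 CPM against 20, 10.5 and 14.3 CPM (log2 fold change 1.52, adjusted p = 0.0294). The short isoform Hbs1l-203 was at 2.14, 4.84 and 4.40 CPM against 1.61, 1.75 and 1.61 CPM and was not called (log2 fold change -1.22, adjusted p = 0.066, edgeR).

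*Upf2* (chr2:5951469-6056703, plus strand, GRCm38) did not follow its label. Its level was 62.9, 43.0 and 29.9 CPM in the libraries labelled *Upf2*-/-, against 9.13, 14.6 and 13 CPM in the *Hbs1l*-/- libraries and 15.6, 21.4 and 16.7 CPM in controls. Every library labelled *Upf2*-/- was thus above every other one, by a log2 fold change of 1.87 over *Hbs1l*-/- (SE 0.26, adjusted p = 0.00104) and of 1.33 over control (adjusted p = 0.00331, edgeR). Counts of a whole gene include the exons that a floxed allele leaves in place, and the exons removed are not given in the sources used here, so that the gene total does not measure the deletion. The excess was most marked for Upf2-202, an isoform model of 11 exons (chr2:6023339-6056698) that begins inside exon 12 of the 22 exons of the full-length Upf2-201. Upf2-202 was at 22.6, 15.2 and 10.6 CPM in the libraries labelled *Upf2*-/-, at 0, 0.695 and 0.808 CPM in *Hbs1l*-/- and at 1.12 to 1.18 CPM in controls (log2 fold change over *Hbs1l*-/- 4.84, SE 0.78, adjusted p = 0.0157). Upf2-201 was at 39.0, 26.6 and 18.4 CPM against 9.30, 14.3 and 12.3 CPM. Because the RNA level goes against the name of the group, its libraries are called *Upf2*-labelled in what follows.

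Of 16223 genes tested, 4403 (27.1%) differed between the genotypes, 2607 (16.1%) being higher and 1796 (11.1%) lower in the *Upf2*-labelled libraries. The 3 libraries of one genotype did not overlap those of the other for 4359 of the 4403 genes, and for 44.8% of all genes tested. The differences were asymmetric in size as well as in number, since 1134 genes were at least doubled (log2 fold change of 1 or more) and 462 were lower by as much. The asymmetry in number was smaller with DESeq2 (2395 higher and 2140 lower) and when every gene with a count was tested (2644 and 2562). The median log2 fold change over all genes tested was 0.02. Leaving out *Hbs1l*-/- replicate 2, the deepest library, reduced the number of genes called to 2685.

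**Figure D1:**
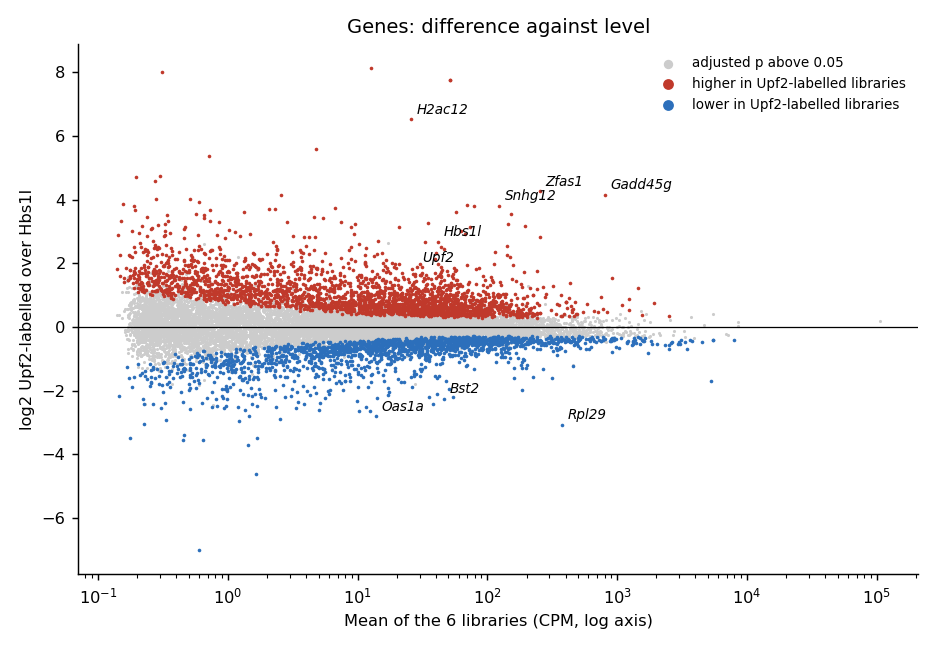
Each point is a gene, with its mean level over the 6 libraries (CPM, log axis) against its log2 fold change of *Upf2*-labelled over *Hbs1l*-/-, coloured by the edgeR call at an adjusted p of 0.05. Of the genes called, 1134 lie at or above a log2 fold change of 1 and 462 at or below -1, and *Rpl29* at a log2 fold change of -3.08 stands apart from most genes of its level.

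The serine/arginine-rich (SR) splicing factors were examined for their NMD isoforms. These proteins bind exons and promote their inclusion, and many of their genes can be spliced to messages with an early stop codon, which NMD degrades. The last 30 bases of the annotated coding sequence are given for the NMD-annotated and the main coding isoform of 5 SR genes, 5' to 3' on the coding strand, with the stop codon in capitals, to show where translation of each isoform ends. The sequences were read from GRCm38 with the Gencode M21 annotation.

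Srsf3-201 (NMD): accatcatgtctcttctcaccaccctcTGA
Srsf3-202 (coding): agccgatctaggtcaaatgaaaggaaaTAG
Srsf7-203 (NMD): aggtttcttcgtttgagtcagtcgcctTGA
Srsf7-208 (coding): agaagtgcaagtccagaaagaatggacTGA
Tra2a-202 (NMD): aaaaaattgaacagaagattggtcagaTAG
Tra2a-201 (coding): tcccgttcctatagtccaagacgctatTGA
Tra2b-206 (NMD): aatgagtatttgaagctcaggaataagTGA
Tra2b-204 (coding): tcacgatcctactcacctcgtcgctacTAA
Srsf2-202 (NMD) and Srsf2-201 (coding): ccagaagaagagggagcagtttcttccTAA

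The stop of Srsf3-201 lies at chr17:29039458-29039487 (plus strand) in exon 4 of 7, 548 bases before the last exon-exon junction, whereas the coding sequence of Srsf3-202 ends at chr17:29041292-29041411 across exons 5 and 6 of 6, past every junction. Srsf7-203 stops at chr17:80205054-80205263 (minus strand, exons 3 and 4 of 9), 699 bases before its last junction, and Srsf7-208 at chr17:80201548-80201577 in the last of its 8 exons. Tra2a-202 stops in exon 2 of 9 (chr6:49252965-49252994, minus strand), 964 bases before the last junction, and Tra2a-201 at chr6:49244721-49244886 in exons 7 and 8 of 8. Tra2b-206 stops in exon 2 of 10 (chr16:22259181-22259210, minus strand), 1015 bases before the last junction, and Tra2b-204 at chr16:22246856-22247208 in exons 8 and 9 of 9. In *Srsf2* both isoforms end at the same stop codon (chr11:116852028-116852057, minus strand, exon 2), but Srsf2-202 has 5 exons and is spliced again downstream, so that its last junction lies 217 bases after the stop, against 7 bases for the 3 exons of Srsf2-201.

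For each of the 5 genes, the NMD-annotated isoform was higher in the *Upf2*-labelled libraries. Srsf3-201 was at 118, 93.6 and 92.4 CPM in the *Upf2*-labelled against 7.43, 14.8 and 17.0 CPM in the *Hbs1l*-/- libraries (log2 fold change 2.92, SE 0.30, adjusted p = 0.00487, edgeR). Its coding counterpart Srsf3-202, which encodes the full-length splicing factor, moved the other way, from 158, 224 and 226 CPM in *Hbs1l*-/- to 95.5, 128 and 67.9 CPM (log2 fold change -1.08, adjusted p = 0.0451). The gene as a whole therefore showed little of this exchange, with a log2 fold change of -0.05 (adjusted p = 0.85).

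Of the 11 SR genes with an NMD-annotated isoform, 7 had at least 1 such isoform called higher and 0 had one called lower. Of all NMD-annotated transcripts tested, counted singly and not per gene, 20.1% were higher and 1.2% lower. *Srsf1*, *Srsf6* and *Srsf9* had none called, while the only such isoform of *Srsf5* did not pass the filter on low counts and was not tested. Srsf2-202 was at 10.7, 6.85 and 10.6 CPM against 0.506, 0.483 and 0.629 CPM (log2 fold change 4.09, adjusted p = 0.00112), and Srsf2-201 fell by 0.72 on the log2 scale (adjusted p = 0.0406). Srsf7-203 was at 19.2, 17.9 and 16.4 CPM against 1.67, 2.14 and 2.33 CPM (log2 fold change 3.08, adjusted p = 0.000625), and Srsf7-208 fell by 0.54 (adjusted p = 0.0314). Tra2a-202 was at 30.7, 20.8 and 16 CPM against 2.06, 3.16 and 2.04 CPM (log2 fold change 3.17, adjusted p = 0.00385), and Tra2a-201 fell by 0.77 (adjusted p = 0.038). Among the genes shown by sequence, *Tra2b*, whose product binds exonic enhancers, was the exception for the coding isoform. Tra2b-206 was at 66.7, 64.4 and 46.7 CPM against 6.85, 13 and 13.8 CPM (log2 fold change 2.37, adjusted p = 0.00729), while Tra2b-204 overlapped between the genotypes (log2 fold change 0.04, adjusted p = 0.928). *Srsf4* and *Srsf11* also had NMD-annotated isoforms called higher, and their main coding isoforms were not called. The log2 fold changes were 0.23 for Srsf4-202 (adjusted p = 0.144) and -0.02 for Srsf11-202 (adjusted p = 0.956, edgeR).

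Expressed as a share of the gene's TPM (a level corrected for transcript length and library size), NMD-annotated isoforms of *Tra2b* made up 67.8, 63.2 and 63.8% of the gene in the *Upf2*-labelled libraries and 13.1, 16.5 and 19.0% in *Hbs1l*-/-. For *Srsf3* the share was 51.3, 38.8 and 53.2% against 4.17, 5.63 and 6.53%, and for *Tra2a* it was 39.1, 31.6 and 34.0% against 3.52, 4.47 and 2.92%. In all 3 genes the *Hbs1l*-/- share was close to that of controls, which averaged 16 ± 4.23%, 7.96 ± 1.02% and 4.35 ± 0.827% (SD, n = 3). The share was higher without overlap in 10 of the 11 SR genes that have an NMD-annotated isoform and at least 1 TPM in every library, and lower in 0. Among all 3119 such genes, 36.1% were higher without overlap and 2.37% lower. *Srsf6* had a high share in both genotypes, 57.6 ± 1.46% against 51.2 ± 2.71%, and *Srsf5* had almost none in either, with overlapping values. At the level of gene totals, 1 of the 13 SR genes tested was higher (*Srsf4*, log2 fold change 0.52) and 1 lower (*Srsf9*, -0.31), a share called of 15.4% against 27.1% of all genes, and these numbers were 4 and 0 without *Upf2*-labelled replicate 3.

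**Figure D2:**
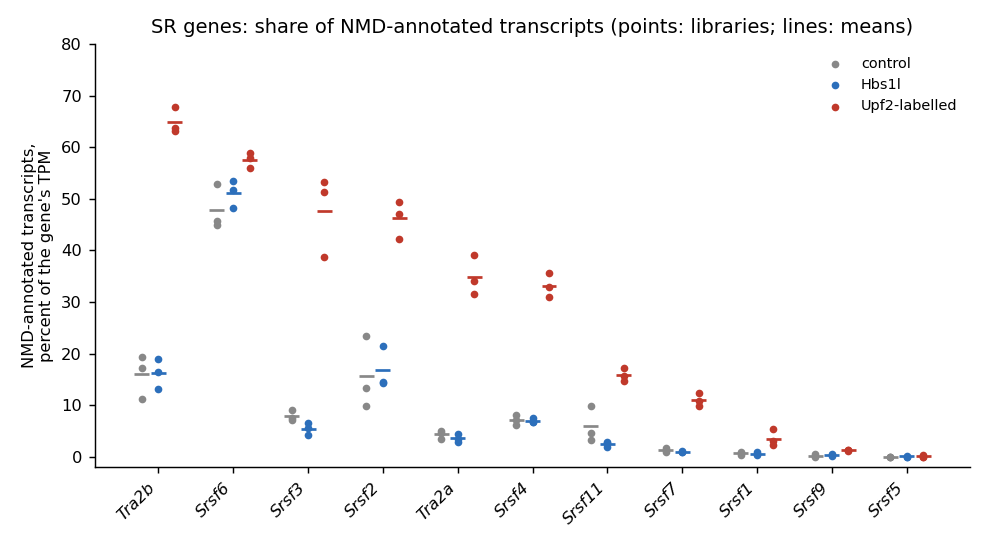
For each SR gene with an NMD-annotated isoform, points give that isoform class as a percent of the gene's TPM in each *Upf2*-labelled, *Hbs1l*-/- and control library. In 10 of 11 genes the 3 *Upf2*-labelled points lie above the 3 *Hbs1l*-/- points, with *Tra2b* at 64.9% against 16.2% on average and *Srsf5* near 0 in both.

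A larger share of NMD-annotated isoforms was also seen in other RNA-binding proteins. Of 32 genes for hnRNPs and related splicing regulators with an NMD-annotated isoform, 24 had a higher share in the *Upf2*-labelled libraries without overlap and 0 a lower one, against the 36.1% and 2.37% of all such genes. *U2af1*, the small subunit of the factor that recognises the 3' splice site, had a share of 48.0, 41.8 and 49.1% against 3.79, 3.34 and 3.45% in *Hbs1l*-/-, while its gene total was not called (log2 fold change -0.01, adjusted p = 0.947). *Luc7l*, a component that contacts the U1 particle, had 56.0, 49.3 and 51.8% against 7.46, 4.16 and 7.01%, and its gene total was higher (1.04, adjusted p = 0.000126). *Hnrnph3* had 69.2, 61.7 and 66.3% against 12.1, 14.3 and 21.4%, again with a higher gene total (0.81, adjusted p = 0.0114). In these 3 genes the shares of the genotypes were far apart, while in *Hnrnpu* 79.4, 78.4 and 78.7% stood against 77.1, 80.1 and 80.5%.

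Over all transcripts, 42034 were tested and 4540 (10.8%) differed, 2801 (6.66%) higher and 1739 (4.14%) lower in the *Upf2*-labelled libraries. The direction depended on the annotated type. Of 3081 NMD-annotated transcripts, 618 (20.1%) were higher and 37 (1.2%) lower, with a median log2 fold change of 0.83. Of 6151 retained-intron transcripts, 463 (7.53%) were higher and 43 (0.699%) lower, and of 1428 lncRNA transcripts, 150 (10.5%) and 15 (1.05%). Protein-coding transcripts were the only large type called more often lower than higher, with 1250 higher (4.6%) and 1574 lower (5.8%) of 27145 and a median of -0.065. Processed pseudogenes, a smaller type of 545 transcripts, likewise had 10 higher and 19 lower.

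The number of transcripts called rested on all 6 libraries. It fell to between 1329 and 2279 when any 1 library was left out, and the NMD-annotated transcripts called higher fell from 618 to 273 without *Upf2*-labelled replicate 1, 307 without replicate 2, 293 without replicate 3, and to 432, 293 and 365 without *Hbs1l*-/- replicates 1, 2 and 3. The 37 called lower fell to 9, 12 and 8 without *Upf2*-labelled replicates 1, 2 and 3, and to 13, 4 and 11 without *Hbs1l*-/- replicates 1, 2 and 3. With a term for Y-linked expression added, an alternative chosen after seeing the data, 242 NMD-annotated transcripts were higher and 11 lower. In each of these fits NMD-annotated transcripts higher in the *Upf2*-labelled libraries far outnumbered those lower.

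**Figure D3:**
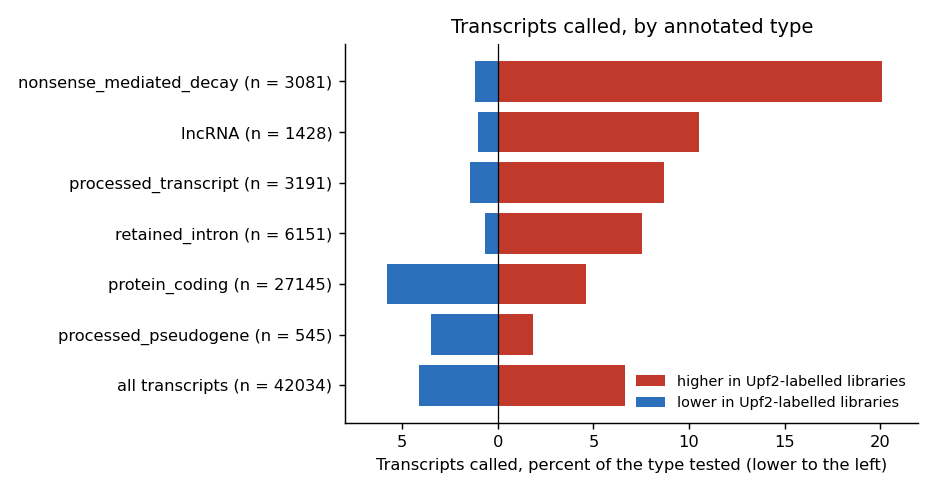
Bars give the percent of tested transcripts of each annotated type called higher (to the right) or lower (to the left) in the *Upf2*-labelled libraries, with the number tested beside each name. The bar for NMD-annotated transcripts reaches 20.1% to the right and 1.2% to the left, and that for protein-coding transcripts 4.6% and 5.8%.

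NMD-annotated transcripts were called higher more often than protein-coding ones at every level of expression. Among transcripts with a mean of under 1 CPM, 11.6% of the NMD-annotated and 2.05% of the protein-coding ones were higher. At 1 to 5 CPM these values were 26.9% and 3.81%, at 5 to 20 CPM 31.8% and 5.92%, and at 20 CPM or more 25.9% and 7.31%. In this top class 9.88% of the NMD-annotated and 14.7% of the protein-coding transcripts were lower, and the medians were 0.037 and -0.15, whereas under 1 CPM the medians were 1 and 0.089. Of 2356 NMD-annotated transcripts with a complete coding sequence in the annotation, 2346 had a stop codon more than 50 bases before the last junction. Among transcripts annotated as protein-coding, 102 also had such a stop, and of these 13.7% were higher and 4.9% lower, against 4.79% and 6.49% of the 23046 without one.

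Other features linked to NMD were read from the coding structure of protein-coding transcripts. Upstream open reading frames are one such feature, and the number of ATG triplets in the 5' leader was used as a simple proxy. Transcripts with no leader ATG were called higher in 4.43% and lower in 7.66% of 11213, and those with 4 or more in 5.52% and 3.34% of 2901. Transcripts with a 3' untranslated region of up to 500 bases were called higher in 3.67% and lower in 9.19% of 8207, and those with more than 2000 bases in 5.13% and 3.43% of 4895. With more leader ATGs, or a longer 3' untranslated region, the balance thus moved from lower to higher calls, mainly through fewer lower calls. The classes also differed in level, with a median of 6.74 CPM for no leader ATG and 2.46 CPM for 4 or more, and the part of expression level in this shift was not tested.

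A test of usage, which compares each transcript with the other transcripts of its gene, called 953 of 35727 transcripts (2.67%), 773 (2.16%) with a larger and 180 (0.504%) with a smaller share in the *Upf2*-labelled libraries. Of the NMD-annotated transcripts, 287 of 3016 had a larger share and 11 a smaller one. Gene totals followed only in part. Of 533 genes with at least 1 NMD-annotated transcript called higher, 276 were higher as a gene, 11 were lower and 246 were not called or not tested. Of all genes tested, 16.1% were higher and 11.1% lower. A gene total includes the counts of its NMD-annotated transcripts, so that the gene calls are not independent of the transcript calls.

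The NMD-annotated transcripts with the largest differences came from genes of varied function. Gak-203, from the gene of a clathrin-uncoating kinase, was at 4.09, 3.56 and 4.30 CPM in the *Upf2*-labelled libraries and at 0 in all 3 *Hbs1l*-/- libraries, which makes it at least 31.5-fold higher when 3 counts per library are taken as the floor (adjusted p = 0.00224, edgeR). Adamts10-204, from a secreted metalloprotease gene, was at 24.3, 16.7 and 32.9 CPM against 0, 0 and 1.14 CPM (log2 fold change 6.00, adjusted p = 0.0326). Nhlrc3-203 was at 18.2, 19.7 and 20.8 CPM against 0, 0.236 and 1.48 CPM. These 3 were nearly absent from the *Hbs1l*-/- libraries and from controls, where none exceeded 2.51 CPM. The other 7 of the 10 largest were Snx17-202, Nop58-209, Snrnp70-204, Sfswap-204, Ptcd3-211, Nupr1-205 and Cdk5rap3-205, with log2 fold changes from 4.55 to 4.93. They include core splicing (*Snrnp70*), splicing regulation (*Sfswap*) and small nucleolar RNP assembly (*Nop58*).

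Few NMD-annotated transcripts went the other way. Flna-213 was at 17.6, 43.4 and 103 CPM in the *Upf2*-labelled libraries against 967, 368 and 247 CPM in *Hbs1l*-/- (log2 fold change -3.29), although the gene total of *Flna*, an actin cross-linker, was not called (-0.31, adjusted p = 0.0715). Eln-203, from the elastin gene, was at 0, 0.403 and 0.294 CPM against 14.5, 9.20 and 6.60 CPM. The other 3 of the 5 largest decreases, Oasl2-205, Oas1g-203 and Xaf1-201, belong to interferon-induced genes whose totals were also lower (*Oasl2* -2.63, *Oas1g* -1.96, *Xaf1* -1.70).

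As a share of all TPM in a library, NMD-annotated transcripts made up 2.45, 2.48 and 2.28% in the *Upf2*-labelled, 2.1, 1.97 and 2.00% in the *Hbs1l*-/- and 1.78, 1.81 and 2.06% in the control libraries. The mutant groups did not overlap, and the difference of 0.381 percentage points gave p = 0.1 in a two-sided exact permutation test, the smallest value that 3 against 3 libraries allow. Retained-intron transcripts made up 2.14 ± 0.12% against 2.16 ± 0.0884% (SD, n = 3; difference -0.0214, exact p = 0.9). Entries for miRNA genes, which are short and so weigh heavily in TPM, took 22.2% against 14.5% of all TPM. When miRNA and rRNA entries were set aside, a step chosen after seeing the data, the differences became 0.84 and 0.292 percentage points, and as a share of estimated counts they were 0.666 and 0.205.

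Among genes with a mean of at least 5 CPM and a symbol that is not of the predicted kind, 6 of the 12 largest increases were in noncoding hosts of small nucleolar RNAs (snoRNAs), whose introns carry the snoRNA and whose spliced exons hold only short reading frames. *Zfas1* was at 509, 469 and 467 CPM in the *Upf2*-labelled against 20.6, 27.1 and 27.4 CPM in the *Hbs1l*-/- libraries (log2 fold change 4.26, SE 0.14, adjusted p = 1.82e-07, edgeR). *Snhg12* was at 254, 203 and 237 CPM against 16.1, 16.6 and 17.0 CPM (3.8, SE 0.12), and *Snhg1* at 341, 252 and 247 CPM against 17.6, 26.5 and 26.9 CPM (3.55, SE 0.19). In all 3 the *Hbs1l*-/- libraries were near the controls, which held 23.7 to 27.0, 17.2 to 18 and 23.8 to 29.3 CPM. Of 22 entries for snoRNA host noncoding genes, 14 were higher and 1 lower, against 16.1% and 11.1% of all genes, with a median log2 fold change of 1.67 against 0.02 for all genes. *Gas5*, a classical NMD substrate, was at 327, 232 and 193 CPM against 55.4, 67.4 and 73.9 CPM (1.93, SE 0.19), and *Dancr* was the member that was lower (-0.65). The number lower was 0 without *Hbs1l*-/- replicate 3, without *Upf2*-labelled replicate 1 or 2 and with the term for Y-linked expression. The medians of this group were 1.36 for *Upf2*-labelled over control and -0.093 for *Hbs1l*-/- over control, 2 comparisons that share libraries with the direct one. The quantification was run without a strand setting, so that reads of these genes and of overlapping antisense genes cannot be told apart.

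Several messages known to be held down by NMD were also higher, *Gadd45g* and *Ddit3* among the 12 largest increases. *Gadd45g*, a growth-arrest and DNA damage-inducible gene, was at 1581, 1270 and 1690 CPM against 92.4, 87.0 and 77.1 CPM (log2 fold change 4.15, SE 0.15, adjusted p = 2.57e-07). *Ddit3*, which encodes the stress transcription factor CHOP, was at 299, 209 and 275 CPM against 28.7, 27.8 and 26.3 CPM (3.24, SE 0.14, adjusted p = 1.48e-06). *Gadd45b* was at 188, 182 and 206 CPM against 40.4, 34.8 and 37.5 CPM (2.36, SE 0.11). For each of the 3 genes every *Upf2*-labelled library was above every *Hbs1l*-/- and every control library. *Rpl12*, a ribosomal protein gene with an unproductive splice form, was at 230, 203 and 267 CPM against 46.6, 48.2 and 51.4 CPM (2.26, SE 0.13), and *Atf4*, whose leader holds upstream reading frames, at 635, 634 and 615 CPM against 256, 241 and 233 CPM (1.37, SE 0.09). Of 34 genes on a list of known NMD-sensitive mRNAs, 17 were higher and 3 lower, again against 16.1% and 11.1% of all genes, with a median of 0.51 that became 0.34 without *Hbs1l*-/- replicate 1. The 3 that were lower, *Fgfr1* (-0.47), *Map3k14* (-0.44) and *Rpl3* (-0.42), changed by less than the examples above, and the number lower was 1 without *Hbs1l*-/- replicate 1 or *Upf2*-labelled replicate 1 and 0 with the term for Y-linked expression.

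The other genes among the 12 largest increases were *H2ac12*, *Pvt1*, *Snhg5*, *Snhg16*, *Snhg15*, *Nupr1* and *Tnnc1*. *H2ac12*, a histone H2A gene, had the largest SE of the 12, at 25.0, 87.6 and 40.6 CPM against 0.459, 0.628 and 0.510 CPM (6.53, SE 0.51), and histone messages mostly lack the poly-A tail on which the libraries were selected. *Pvt1*, a long noncoding RNA next to *Myc*, was at 144, 123 and 125 CPM against 7.99, 9.63 and 9.70 CPM (3.83, SE 0.13). *Nupr1*, a stress-induced chromatin protein, was at 154, 92.8 and 109 CPM against 14.4, 15.4 and 16.6 CPM (2.93, SE 0.18). *Nupr1* was at 27.1 to 36.0 CPM in controls, between the 2 mutants, as was the muscle troponin gene *Tnnc1* (4.91 to 6.62 CPM in controls, 13.6 to 18.6 and 1.83 to 2.64 CPM in the mutants).

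**Figure D4:**
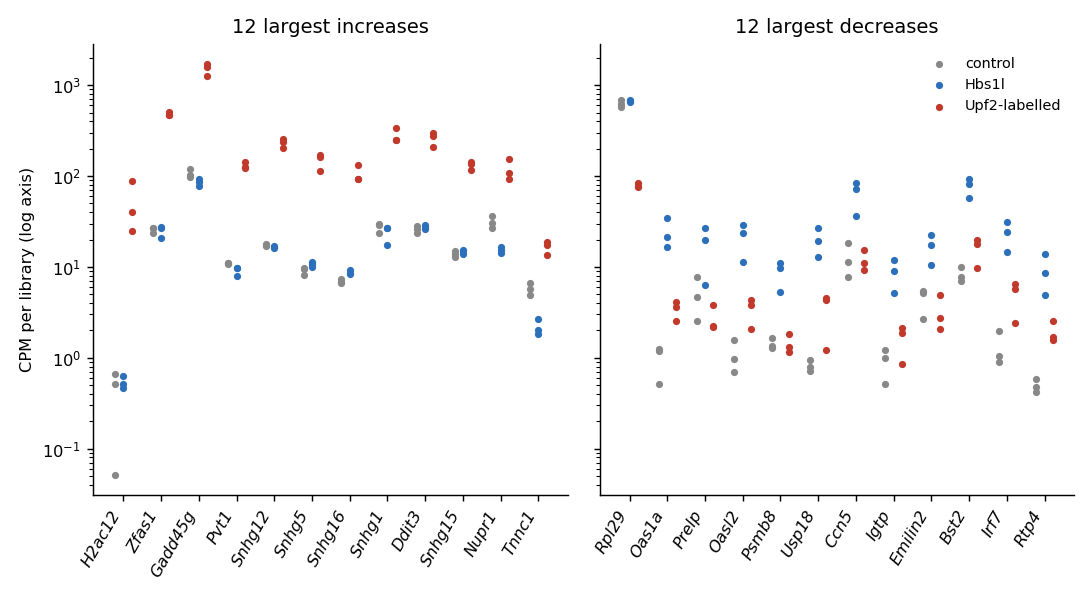
Points give the level of each of the 12 genes with the largest increase and the 12 with the largest decrease in every *Upf2*-labelled, *Hbs1l*-/- and control library (CPM, log axis). Among the increases the control points mostly lie with *Hbs1l*-/-, as for *Zfas1* (23.7 to 27.0 CPM), and among the decreases they mostly lie with or below the *Upf2*-labelled points, as for *Oas1a* (0.516 to 1.24 CPM).

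Genes of the NMD machinery itself were in part higher in the *Upf2*-labelled libraries. Of 17 NMD factors tested, 8 were higher, *Upf2* among them, 2 were lower and 7 were not called, where 16.1% of all genes were higher and 11.1% lower, and the median log2 fold change was 0.34. *Smg5*, an adaptor that recruits decay enzymes, was at 349, 366 and 410 CPM against 161, 148 and 170 CPM (1.24, SE 0.11, adjusted p = 0.000104). *Smg1*, the kinase that phosphorylates UPF1, was at 72.8, 67.5 and 52.7 CPM against 20.4, 28.6 and 21.6 CPM (1.44, SE 0.16). *Upf1*, the central helicase, rose less, at 148, 156 and 171 CPM against 112, 90.5 and 87.9 CPM (0.71, SE 0.12, adjusted p = 0.00287). *Smg9* (1.47), *Smg6* (1.02) and *Upf3b* (0.86) were among the other members that rose. *Ruvbl1* (-0.50) and *Ruvbl2* (-0.44), which belong to ATPase complexes with many other roles, fell. The number of NMD factors lower was 1 without *Hbs1l*-/- replicate 3 or *Upf2*-labelled replicate 1, and 3 without *Hbs1l*-/- replicate 1.

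For genes of ribosome rescue, the exon junction complex and general mRNA decay, the shares called were 29.6%, 27.3% and 15.2%, close to or below the 27.1% of all genes. Of 27 genes for ribosome rescue and quality control, 6 were higher and 2 lower, with a median of 0.01, and *Hbs1l* itself is 1 of the 6. The number lower was 0 without *Hbs1l*-/- replicate 3, without *Upf2*-labelled replicate 2 and with the term for Y-linked expression, and 1 without *Upf2*-labelled replicate 1. *Pelo*, the partner of HBS1L, was at 22, 21.5 and 24.6 CPM against 31.1, 26.5 and 27.1 CPM (-0.31, adjusted p = 0.0888), so the genotypes did not overlap but the test was not passed. *Gtpbp2*, a GTPase related to HBS1L, was at 24.1, 27.3 and 31.9 CPM against 18.7, 17.9 and 17.3 CPM (0.63, SE 0.14, adjusted p = 0.00926). Of 33 mRNA decay enzymes, 1 was higher (*Pan3*, 0.67) and 4 were lower, 3 of them exosome subunits (*Exosc7*, -0.75; *Exosc3*, -0.58; *Exosc8*, -0.43). The number lower was 1 without *Hbs1l*-/- replicate 2, 2 without *Hbs1l*-/- replicate 3 or *Upf2*-labelled replicate 1, and 7 by DESeq2. Of 11 genes of the exon junction complex, 1 was higher (*Pym1*, 0.40) and 2 were lower (*Alyref*, -0.52, and *Eif4a3*, -0.49). The number higher was 0 without *Hbs1l*-/- replicate 1, 2 or 3 and without *Upf2*-labelled replicate 2 or 3. The number lower was 3 without *Hbs1l*-/- replicate 1.

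The genes that were lower in the *Upf2*-labelled libraries were led by interferon-stimulated genes, which encode the antiviral response. Of 48 tested, 38 were lower and 0 higher, where 11.1% of all genes were lower and 16.1% higher, with a median log2 fold change of -1.57. DESeq2 gave 42 lower and 0 higher, and 1 was higher without *Upf2*-labelled replicate 1. *Oas1a*, an RNA sensor that makes oligoadenylate, was at 2.56, 4.14 and 3.62 CPM against 21.2, 34.6 and 16.6 CPM (-2.80, SE 0.29, adjusted p = 0.00023, edgeR). *Isg15*, a ubiquitin-like protein, was at 5.72, 17.0 and 14.9 CPM against 55.4, 80.4 and 39.4 CPM (-2.20, SE 0.38, adjusted p = 0.00302). For both genes every *Hbs1l*-/- library was above every *Upf2*-labelled one, although replicates of a genotype differed among themselves more than for the snoRNA hosts. The controls were lower still for *Oas1a* (0.516 to 1.24 CPM) and *Isg15* (2.68 to 4.43 CPM). Against control, 42 genes of the list were higher and 0 lower in *Hbs1l*-/-, where 12.7% of all genes tested were higher and 10.4% lower. In the *Upf2*-labelled libraries 27 were higher and 0 lower than in control, where 13.2% of all genes were higher and 6.76% lower. The medians were 3.11 and 1.37. Not every member followed, since the GTPase *Mx2* was at 1.46, 3.72 and 3.44 CPM against 1.49, 2.37 and 0.977 CPM (0.82, adjusted p = 0.151).

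Macrophage markers moved with this group. Of 12 tested, 11 were lower and 0 higher (91.7% called, against 27.1% of all genes), with a median of -1.27, and their summed level was 91.5 to 159 CPM in the *Upf2*-labelled, 197 to 266 CPM in the *Hbs1l*-/- and 102 to 148 CPM in the control libraries. *Csf1r*, the receptor on which macrophages depend, was at 11.8, 12.8 and 9.42 CPM against 30.3, 32.4 and 19.9 CPM (-1.28, SE 0.20), and the complement gene *C1qa* at 8.25, 8.14 and 7.05 CPM against 20, 24.2 and 17.9 CPM (-1.41, SE 0.15). In bulk RNA, fewer cells of a type and less RNA per cell cannot be told apart, and the part of macrophages in the interferon result was not tested. For these 2 groups, and for the groups of 40S, synthetase, DNA replication, mitotic and cholesterol genes described next, an unadjusted p below 0.05 and DESeq2 also gave 0 genes higher. With the term for Y-linked expression, 23 of the 48 interferon-stimulated genes were lower and 0 higher.

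The remaining genes among the 12 largest decreases were *Rpl29*, *Prelp*, *Oasl2*, *Psmb8*, *Usp18*, *Ccn5*, *Igtp*, *Emilin2*, *Bst2*, *Irf7* and *Rtp4*. *Oasl2* (-2.63), *Psmb8* (-2.60), *Usp18* (-2.53), *Igtp* (-2.39), *Bst2* (-2.26), *Irf7* (-2.24) and *Rtp4* (-2.24) are interferon-induced genes. *Prelp* (-2.65), *Ccn5* (-2.42) and *Emilin2* (-2.34) encode proteins of the extracellular matrix.

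*Rpl29* (chr9:106429454-106431568, GRCm38), a protein of the large ribosomal subunit, had the largest decrease among the genes eligible for naming, at 83.1, 76.4 and 77.8 CPM against 679, 647 and 676 CPM (-3.08, SE 0.10, adjusted p = 1.69e-07). This value is uncertain, because pseudogene entries share much of its sequence. The Gencode M21 transcripts of *Gm13841* and *Gm8210* have the same 453 words of 31 bases, and *Rpl29* transcripts hold 360 of them (79.5%), while how reads were divided among the 3 was not tested. These pseudogenes each held 105, 105 and 100 CPM in the *Upf2*-labelled libraries and 0.42, 0.399 and 0.644 CPM in *Hbs1l*-/-. The sum over the 3 genes was 292, 287 and 279 CPM against 680, 648 and 678 CPM, so a part of the decrease remained when the copies were counted together.

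Ribosomal protein genes as a group were lower in the *Upf2*-labelled libraries by small amounts. The shares called were 72.7% for the 40S and 53.1% for the 60S subunit, 44.4% for translation factors and 43.5% for the synthetases, against 27.1% of all genes (11.1% lower and 16.1% higher). Of 33 genes of the 40S subunit, 24 were lower and 0 higher (median -0.39), and of 49 genes of the 60S subunit, 24 were lower and 2, *Rpl12* and *Rpl10a*, higher (median -0.33). *Rps2* was at 3465, 3796 and 4052 CPM against 5236, 5004 and 5664 CPM (-0.49, SE 0.11, adjusted p = 0.0101), and *Rps7* at 868, 524 and 639 CPM against 1029, 1151 and 1299 CPM (-0.78, SE 0.17, adjusted p = 0.00873). Translation initiation and elongation factors were similar, with 17 of 45 lower and 3 higher, among them *Eef1g* (-0.58) and *Eef2* (-0.40) on one side and *Eif4a2* (1.40), a helicase gene with NMD-annotated isoforms, on the other. Of 23 cytosolic aminoacyl-tRNA synthetase genes, which charge tRNAs, 10 were lower and 0 higher (median -0.31), led by *Vars* (-0.67). The counts in these groups moved with single libraries. Without *Hbs1l*-/- replicate 3 the numbers lower were 12 for the 40S, 10 for the 60S, 7 for translation factors and 4 for the synthetases. Without *Upf2*-labelled replicate 1 they were 15, 12, 8 and 6, and without *Upf2*-labelled replicate 2 they were 15, 11, 10 and 6. The synthetases also fell to 6 without *Upf2*-labelled replicate 3 or *Hbs1l*-/- replicate 2, and the 60S genes to 14 without the latter. With the term for Y-linked expression 14, 6, 8 and 9 were lower. The 3 translation factors that were higher became 1 without *Hbs1l*-/- replicate 2 or *Upf2*-labelled replicate 2. Of the 60S genes, the number higher was 1 without *Hbs1l*-/- replicate 1 or 2.

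The stress genes driven by ATF4 were called in both directions in RNA. Of 42 genes on a list for ATF4 and the integrated stress response, 8 were higher and 7 lower (35.7% called, against 27.1% of all genes), with a median of -0.21. The median was -0.099 without *Upf2*-labelled replicate 1, and with the term for Y-linked expression 11 were higher and 3 lower, with a median of -0.043. The 8 that were higher were *Ddit3*, *Nupr1*, *Atf4*, *Atf3* (1.23), *Ern1* (0.74), *Sqstm1* (0.71), *Gdf15* (0.61) and *Ppp1r15a* (1.47), which encodes a subunit of the phosphatase that reverses the stress signal on eIF2α. The 7 that were lower were the serine synthesis genes *Phgdh* (-0.70) and *Psat1*, the asparagine synthetase gene *Asns*, *Pck2* (-0.85), *Slc7a3* (-0.75), *Mthfd1l* (-0.59) and *Ppp1r15b* (-0.34). *Psat1* was at 382, 526 and 422 CPM against 698, 715 and 719 CPM (-0.68, SE 0.13, adjusted p = 0.00492), and *Asns* at 181, 211 and 213 CPM against 284, 272 and 272 CPM (-0.45, SE 0.11, adjusted p = 0.0121). Controls were at 442, 438 and 546 CPM for *Psat1* and at 193, 202 and 253 CPM for *Asns*, nearer to the *Upf2*-labelled libraries.

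Genes of cell division were lower in the *Upf2*-labelled libraries. Of 44 DNA replication genes, 27 were lower and 0 higher (median -0.51), and of 40 mitotic genes, 25 and 0 (median -0.71), against 11.1% of all genes lower and 16.1% higher. *Mcm5*, a subunit of the replicative helicase, was at 91.5, 141 and 115 CPM against 234, 220 and 236 CPM (-0.99, SE 0.15, adjusted p = 0.00177), and the mitotic kinase *Plk1* at 63.6, 89.9 and 70.6 CPM against 170, 154 and 154 CPM (-1.09, SE 0.14). The controls were at 110 to 130 CPM for *Mcm5* and 73.7 to 103 CPM for *Plk1*, overlapping the *Upf2*-labelled libraries and below every *Hbs1l*-/- library. The medians against control were -0.01 for replication and -0.25 for mitosis in the *Upf2*-labelled libraries, and 0.48 and 0.51 in *Hbs1l*-/-. The number of replication genes that were lower was 16 without *Upf2*-labelled replicate 1, 16 without *Hbs1l*-/- replicate 2 and 17 without *Hbs1l*-/- replicate 3.

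Of 50 collagen and matrix genes, 23 were lower, 6 were higher and 21 were not called (median -0.42), where 11.1% of all genes were lower and 16.1% higher. *Col6a2*, a chain of collagen VI, was at 83.1, 152 and 105 CPM against 463, 322 and 219 CPM (-1.56, SE 0.28), and the proteoglycan gene *Lum* at 1.37, 2.13 and 1.37 CPM against 6.27, 7.54 and 4.04 CPM (-1.86, SE 0.28). *Fn1*, which encodes fibronectin, was the opposite, at 2385, 2154 and 2661 CPM against 1851, 1351 and 1124 CPM (0.74, SE 0.17, adjusted p = 0.0122). Of 12 fibroblast markers, a list that shares genes with this one, 10 were lower and 1 (*Fn1*) higher (91.7% called). The median of the 50 collagen and matrix genes was -0.26 without *Hbs1l*-/- replicate 1. The number of matrix genes that were lower was 15 without *Hbs1l*-/- replicate 1, 14 without *Upf2*-labelled replicate 1 and 10 with the term for Y-linked expression. The number that were higher was 1 without *Hbs1l*-/- replicate 2, 2 without *Hbs1l*-/- replicate 3 and 3 without *Upf2*-labelled replicate 3.

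Muscle markers moved in the other direction. Of 12 skeletal and cardiac muscle markers tested, 7 were higher and 0 lower (58.3% called, against 27.1% of all genes; median 0.95), and their summed level was 275 to 490 CPM in the *Upf2*-labelled, 150 to 249 CPM in the *Hbs1l*-/- and 388 to 470 CPM in the control libraries. *Acta1*, skeletal actin, was at 76.1, 41.5 and 83.0 CPM against 17.3, 14.1 and 29.0 CPM (1.73, SE 0.30, adjusted p = 0.00329) and at 101 to 135 CPM in controls. The *Upf2*-labelled libraries thus lay between *Hbs1l*-/- and control for this gene. DESeq2 and an unadjusted p below 0.05 also gave 0 markers lower, and the part of the mixture of cells in these differences was not tested. Of the other marker lists, to be read against the 16.1% of all genes that were higher and the 11.1% lower, 4 of 13 neural and glial genes were higher and 0 lower (0 by DESeq2 and unadjusted), the 4 becoming 1 without *Hbs1l*-/- replicate 3, without *Upf2*-labelled replicate 1 and with the term for Y-linked expression. In addition, 3 of 8 endothelial genes were higher and 1 lower, 1 of 11 chondrocyte genes was higher and 1 lower, and 3 of 6 epithelial genes were lower and 0 higher (1 by DESeq2 and unadjusted). The endothelial number lower was 0 without *Hbs1l*-/- replicate 1 or 2 or *Upf2*-labelled replicate 1, and 2 without *Upf2*-labelled replicate 2. For chondrocyte genes it was 0 without *Hbs1l*-/- replicate 1 or 2 or *Upf2*-labelled replicate 1 or 3, and 2 without *Hbs1l*-/- replicate 3. The chondrocyte number higher was 2 without *Hbs1l*-/- replicate 1.

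**Figure D5:**
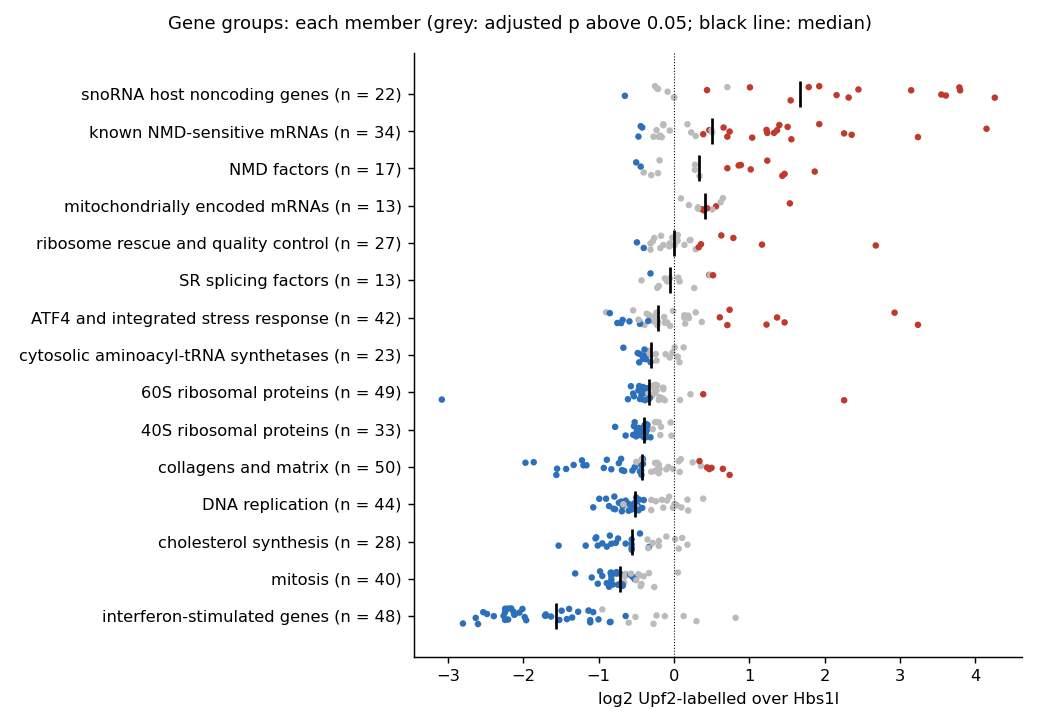
Each point is a gene of a group, at its log2 fold change of *Upf2*-labelled over *Hbs1l*-/-, with the group's median marked and the number of genes tested beside its name. The snoRNA hosts have the highest median (1.67) and the interferon-stimulated genes the lowest (-1.57), while ribosomal proteins of both subunits lie mostly below 0, with *Rpl29* (-3.08) and *Rpl12* (2.26) far from the rest.

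Mitochondrially encoded mRNAs, which are made by a separate polymerase inside the organelle, were higher in 6 of 13 cases and lower in 0 (46.2% called, against 27.1% of all genes; median 0.41), also by DESeq2 (9 and 0) and at an unadjusted p below 0.05 (11 and 0). *mt-Atp6*, a subunit of ATP synthase, was at 1318, 1351 and 1426 CPM against 296, 639 and 467 CPM (1.54, SE 0.23, adjusted p = 0.00155), with controls at 1483 to 1954 CPM. *mt-Co1*, a subunit of cytochrome oxidase, was at 1897, 1574 and 1780 CPM against 1371, 1474 and 1211 CPM (0.37, SE 0.11, adjusted p = 0.0375). The number higher was 2 without *Hbs1l*-/- replicate 1, 3 without replicate 2, 3 without replicate 3, 1 without *Upf2*-labelled replicate 1 and 1 with the term for Y-linked expression. Cholesterol synthesis genes were lower in 18 of 28 cases and higher in 0 (64.3% called; median -0.56). *Sqle*, which catalyses an early committed step, was at 28.3, 35.5 and 29.4 CPM against 64.2, 60.7 and 55.0 CPM (-0.95, SE 0.13, adjusted p = 0.00088) and at 42.0 to 60.8 CPM in controls.

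Genes close to the targeted loci were counted separately. Within 10 Mb of *Upf2*, 33.3% of 60 genes were called, against 29.1% over the chromosome, and within 10 Mb of *Hbs1l* 24.1% of 87, against 24.2%. Without these genes, an alternative chosen after seeing the data, 4360 genes were called.

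Ribosome footprints of the same genotypes, from separate libraries that the choice of this comparison did not use, were read as another measure. Each mutant was compared with the controls of its own batch, and the difference between these effects was tested in a fit over 12 libraries. The same-numbered controls of both batches differed by little more than counting noise (chi-square per gene of 1.14 to 1.19, against 4.19 to 11.5 for other pairs), so that they may be the same libraries counted in each batch. The fit over 12 libraries counts them as 6 separate controls, and a fit over 9 libraries, with each such pair averaged and counted once, was therefore added after seeing the data. In that fit the controls cancel from the difference of the effects. It thus compares mutant libraries of different batches directly, and genotype and batch coincide in it. If the same-numbered controls are the same libraries, they also largely cancel in the fit over 12 libraries, and the same limit then holds there. *Upf2* footprints on coding sequence were at 115 ± 2.94 CPM in the *Upf2*-labelled footprint libraries, 54.0 ± 4.73 CPM in their controls and 56.0 ± 2.63 CPM in *Hbs1l*-/- (SD, n = 3), which is the direction of its RNA. *Hbs1l* footprints were at 1.93 ± 0.582 CPM in *Hbs1l*-/- and 29.3 ± 1.69 CPM in the *Upf2*-labelled libraries.

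Footprints differed between the genotypes in 608 of 12334 genes (4.93%), 355 (2.88%) higher and 253 (2.05%) lower in the *Upf2*-labelled cells. With the controls counted once, 2178 of 12220 genes (17.8%) were called, 1254 higher and 924 lower, and they included, with the same sign, all 355 of the genes higher in the fit over 12 libraries and 252 of the 253 lower. Of the genes higher in RNA, 1864 were tested in footprints, of which 237 were higher and 5 lower, with a median difference of log2 effects of 0.26 against -0.01 for all genes. Of the genes lower in RNA, 1642 were tested, with 83 lower, 9 higher and a median of -0.1. With the controls counted once, 613 of the former were higher and 31 lower, and 244 of the latter were lower and 56 higher, with medians of 0.28 and -0.09. *Gadd45g* had a difference of 2.57 (adjusted p = 2.21e-06), *Nupr1* of 2.24 (adjusted p = 2.55e-07), *Rpl12* of 2.07 (adjusted p = 0.00027) and *Ddit3* of 0.98 (adjusted p = 0.00219, edgeR). Of 17 NMD factors, 8 were higher in footprints and 0 lower (2 lower at an unadjusted p below 0.05, 0 by DESeq2), and of 33 known NMD-sensitive mRNAs, 13 and 0 (3 lower unadjusted, 1 by DESeq2). With the controls counted once these became 8 higher and 1 lower, and 19 and 2. Of 42 genes for ATF4 and the integrated stress response, 12 were higher in footprints and 0 lower, with a median of 0.38, and DESeq2 (14 and 0), an unadjusted p below 0.05 (25 and 0) and the fit with controls counted once (26 and 0) also gave none lower. The interferon-stimulated genes gave 0 calls in either direction among 47 tested, with a median of 0.45, and here DESeq2 also gave 0, while 5 were higher and 0 lower at an unadjusted p below 0.05. With the controls counted once, 13 of them were higher and 0 lower, which is opposite to the direction of their RNA. That fit sets mutant libraries of different batches against each other, and the part of batch in this difference was not tested. The footprint groups may differ in sex as well. From a list of sex-linked genes, 1 was tested in footprints, with a difference of log2 effects of 9.2. It was not called in the fit over 12 libraries and was called higher with the controls counted once. The part of sex in the footprint results was not tested.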

How the data were processed

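RNA of 3 *Upf2*-labelled, 3 *Hbs1l*-/- and 3 control MEF libraries was used, grouped by the labels. For each transcript an estimated count and a TPM value were deposited, made by the authors with kallisto 0.42.4 against Gencode M24, with no strand setting in the stated parameters. For footprints the authors deposited raw counts per gene over coding sequence, made with bowtie2 2.2.3, HISAT2 2.1.0 on mm10, and featureCounts.

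Estimated counts were rounded, summed per gene, filtered and scaled (filterByExpr, TMM), and tested with edgeR 4.0.16 in R 4.3.3 (quasi-likelihood, Benjamini-Hochberg, threshold 0.05), with genotype as the only term. All genes or transcripts tested entered each adjustment. Totals of 26576733 to 86425762 counts in the mutant and 22713643 to 77329534 in the control libraries set the precision. Usage was tested with edgeR's diffSpliceDGE, and shares of TPM with an exact permutation test. Coding ends came from Gencode M21 on GRCm38. The procedures were tested on simulated counts. The tests leave out the uncertainty of assigning reads to isoforms. Alternatives were DESeq2 1.42.0, RLE scaling, other filters, a replicate block, thinning, all 11 RNA libraries, counts scaled from TPM, and leaving out each library.

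The genes named were the 2 targets and the 12 largest increases and decreases among genes called, with no overlap between genotypes, a mean of at least 5 CPM and no predicted-gene symbol, and likewise the 10 largest increases and 5 largest decreases of NMD-annotated transcripts with a mean of at least 1 CPM. Members of gene lists named besides these were chosen after their values were seen. The comparison and the lists were chosen with earlier results of these data known.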

Additional observations from a re-analysis of the deposited data

Results flagged for a closer look

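The effects of the 2 genotypes on ribosome footprints, each measured against the controls of its own batch, differed from each other in 608 of 12334 genes by a test of the difference itself (edgeR, interaction over 12 libraries). *Gadd45g* (difference of log2 effects 2.57) and *Nupr1* (2.24) are examples of the 355 genes with a higher difference. The same-numbered controls of both batches differed by little more than counting noise and may be the same libraries, in which case the 12 libraries hold 3 and not 6 independent controls. In that case the controls also largely cancel, and the test compares mutant libraries of different batches almost directly. With each such pair averaged and counted once, an alternative chosen after seeing the data, 2178 of 12220 genes were called. The mutants' footprint libraries come from different batches, and leaving out each library in turn gave 353 to 583 genes.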

How the results depend on the processing

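The 26 named genes kept their direction and their side of the threshold under 15 alternatives of the gene comparison (390 of 390 values). The number of genes called, 4403, ranged from 2685 to 3771 when 1 library was left out. For transcripts, 4540 became 8069 with DESeq2, 1627 with a term for Y-linked expression and 1329 to 2279 with 1 library left out. Usage kept within 1.5 times of its count of 953. Footprints, 608, ranged from 353 to 583 with 1 library left out and was 1928 when the mutants were compared directly without controls and 2178 with same-numbered controls counted once, alternatives chosen after seeing the data. Against control, the *Upf2*-labelled comparison ranged from 1800 to 3201 and the *Hbs1l*-/- one from 1817 to 2663 with 1 library left out. The difference in NMD share of TPM, 0.381, was 0.666 of estimated counts, 0.84 without miRNA and rRNA entries and 0.344 to 0.442 with 1 library left out. For retained introns, -0.0214 became 0.205 and 0.292 in the former 2 and -0.0784 to 0.0416 in the last. The cause of these shifts was not tested. Medians of 34 gene lists moved by less than their genes' SE in 526 of 544 values and changed beyond it in 18. The share of genes called higher was 59.2% of calls and 50.8% with every gene that had a count tested.

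Same-numbered libraries of the 2 genotypes deviated together with correlations of -0.127, 0.239 and -0.0234, so the numbers do not pair the samples. With the replicate number as a block, 3426 genes, 415 transcripts (99 NMD-annotated higher, against 618) and 684 usage differences were called, and the NMD share difference of 0.381 had an exact sign-flip p of 0.25.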

Other observations

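Hox genes, which encode position along the body axis, were called in both directions. Of 37 tested, 10 were higher, 4 lower and 23 not called in the *Upf2*-labelled libraries (edgeR, adjusted p at most 0.05), against 16.1% and 11.1% of all genes. The 10 included *Hoxa5*, *Hoxa6*, *Hoxb2*, *Hoxb3*, *Hoxb4*, *Hoxb5*, *Hoxb6* and *Hoxc6*, and the 4 were *Hoxa13*, *Hoxc11*, *Hoxd8* and *Hoxd13*. *Hoxb3* was at 20.6, 17.1 and 22.7 CPM against 8.60, 7 and 7.48 CPM in *Hbs1l*-/- (log2 fold change 1.39, SE 0.15), and *Hoxd13* at 6.97, 10.4 and 7.15 CPM against 18.6, 15.0 and 18.5 CPM (-1.08, SE 0.18). The number higher was 5, 6 and 6 without *Hbs1l*-/- replicate 2, *Hbs1l*-/- replicate 3 and *Upf2*-labelled replicate 1, and the number lower was 2 without *Hbs1l*-/- replicate 1 or *Upf2*-labelled replicate 1.

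Of 36 p53 targets, 9 were higher and 2 lower, a share called of 30.6% that is close to the 27.1% of all genes, and their median of 0.28 was 0.15 without *Hbs1l*-/- replicate 1 and 0.14 without *Upf2*-labelled replicate 3. *Pmaip1*, a pro-apoptotic gene, was at 95.6, 45.7 and 51.0 CPM against 8.83, 14.6 and 19.8 CPM (2.13, SE 0.32, adjusted p = 0.00167), and *Pidd1*, an adaptor of the p53 response, at 53, 54.8 and 71.3 CPM against 21.4, 19.9 and 21.5 CPM (1.52, SE 0.14). *Cdkn1a*, the cell cycle inhibitor, was at 1153, 1189 and 1455 CPM against 986, 958 and 1160 CPM (0.29, adjusted p = 0.126). Of 35 chemokine, cytokine and NF-kB genes, 15 were lower and 3 higher (51.4% called). *Ccl2*, a monocyte attractant, was at 18.6, 28.7 and 21.2 CPM against 38.6, 55.0 and 40.4 CPM (-0.97, SE 0.19), while *Tnfaip3*, an inhibitor of the pathway, was at 20.2, 14.7 and 15.8 CPM against 7.64, 7.68 and 9.43 CPM (1.03, SE 0.16). Of 23 immediate early genes, 6 were lower and 1, *Atf3*, higher (30.4% called, again close to all genes), and *Egr1* was at 39.1, 56.6 and 37.5 CPM against 112, 121 and 103 CPM (-1.33, SE 0.16). Of 20 smooth muscle contractile genes, 7 were higher and 1 lower (40% called, against 27.1% of all genes). The number lower was 0 without *Hbs1l*-/- replicate 1 or 3 and without *Upf2*-labelled replicate 1 or 2. *Myl9* was among the higher ones, at 1156, 788 and 1007 CPM against 518, 481 and 539 CPM (0.94, SE 0.14).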
